A study of Mus musculus with 24 samples.

Results

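The genes described here are 10 members of the interleukin-6 (IL-6) family and its signalling pathway, chosen by symbol from 24346 symbols listed for each of 24 RNA-seq libraries of mouse colorectal tissue. They are the ligands Il6, Il11, Lif and Osm, the receptor subunits Il6ra, Il11ra1, Osmr and Il6st, the transcription factor Stat3 and the feedback inhibitor Socs3. All libraries came from animals given AOM/DSS, the carcinogen azoxymethane with the colitis-inducing polymer dextran sulfate sodium, and the labels annotate each piece of tissue as tumor or normal. Libraries with the genotype label c-MAF_KO fall by title into KO-8-homo, KO-8-hetero and KO-1-hetero, each with 3 tumor and 2 normal libraries. Libraries with the label WT fall into WT-young, with 4 tumor and 2 normal libraries, and WT-old, with 1 tumor and 2 normal libraries. The words hetero and homo are read as zygosity, the leading numbers 1 and 8 are not explained, and the labels name neither a strain, a promoter or Cre line, an age beyond young and old, nor the animals. P-values therefore measure the spread between these libraries only, which may come from fewer animals than libraries. No library without AOM/DSS was included, so normal tissue is tissue of treated animals.

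Ligands of the IL-6 family bind a private receptor and then the shared subunit gp130, which is encoded by Il6st. The assembled receptor activates Janus kinases, which phosphorylate STAT3, and phosphorylated STAT3 enters the nucleus and switches on genes that include Socs3. The SOCS3 protein binds gp130 and the Janus kinases and ends the signal, so Socs3 RNA is often used as a readout of recent signalling. In colitis-associated tumors of the mouse colon, IL-6 and IL-11 made by immune and stromal cells are known activators of STAT3 in epithelial cells. The libraries measure RNA, not phosphorylated protein.

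Values are FPKM, fragments per kilobase of transcript scaled to each library's mapped fragments. Tests were made on log2(FPKM + 1), which understates the change of low genes, and a gene was called when its limma p-value, adjusted over 13799 tested genes by the Benjamini-Hochberg method, was under 0.05. The relative depth of the libraries ranged from 0.688 to 1.87 of the median library, and the fragment totals are unknown. Depth was estimated as the most frequent ratio to a reference library over genes below 1 FPKM in all libraries. Maf, the gene named by the genotype label, was at 2.62 to 7.40 FPKM in KO-labelled tumors, at 1.63 to 2.26 FPKM in WT-young tumors and at 7.26 FPKM in the WT-old tumor, so its level was not lower under the KO label. A gene-level value may miss a deletion of part of a gene, and KO below means only the label. Xist, which is transcribed in female cells, was above 1 FPKM in 6 libraries: the 4 normal libraries with hetero titles and replicate 3 of the tumors of KO-1-hetero and KO-8-hetero. It was at most 0.0719 FPKM in the other 18. Under the KO label, Xist status and tissue are thus partly confounded. Epithelial markers were high in every library, with 6 markers summing to 2582 to 6995 FPKM in tumors and 3765 to 8016 FPKM in normal tissue. The WT-old tumor stood apart by its B and plasma cell markers, which summed to 1815 FPKM where WT-young tumors had 108 to 316 FPKM. In tumor against normal, calls of members and counts of gene lists that change without the WT-old libraries under the WT label, or without the Xist-positive libraries under the KO label, are given both ways.

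The start regions of 4 members are shown because they were higher in every tumor than in every normal library, as described below, and their windows held a match to a motif of a factor known in this pathway or in inflammation. The RefSeq windows (build GRCm38.p6) were searched over 250 bases upstream of each start on both strands for TTCNNNGAA, a core bound by STAT factors, for TGAGTCA, bound by AP-1, and for GGG and TTTCC with any 2 bases between them, bound by NF-kB. Of 32851 such windows, 7.02% held the STAT core, 4.46% the AP-1 element and 1.41% the NF-kB element. A window was found for 9 of the 10 members, 11 windows in all, and 4 held a match. Osm had no entry. The sequences are written 5′ to 3′ along the gene, and the matches are in capitals. Only the longest stretch of each window outside every GENCODE exon is printed, which shortens the windows of Lif and Socs3. Il6 is at chr5:30012864-30013113 on the plus strand, Il11 at chr7:4778142-4778391 on the minus strand, Lif at chr11:4257318-4257556 on the plus strand and Socs3 at chr11:117969452-117969616 on the minus strand.
Il6: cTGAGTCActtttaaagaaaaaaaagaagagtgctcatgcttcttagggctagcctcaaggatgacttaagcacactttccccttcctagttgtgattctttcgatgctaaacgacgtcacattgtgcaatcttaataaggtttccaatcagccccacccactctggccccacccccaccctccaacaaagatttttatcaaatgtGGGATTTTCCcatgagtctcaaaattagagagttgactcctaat
Il11: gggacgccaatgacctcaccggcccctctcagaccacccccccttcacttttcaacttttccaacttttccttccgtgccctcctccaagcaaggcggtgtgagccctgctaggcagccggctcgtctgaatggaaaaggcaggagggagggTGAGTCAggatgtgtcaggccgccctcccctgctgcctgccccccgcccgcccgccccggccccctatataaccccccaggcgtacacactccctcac
Lif: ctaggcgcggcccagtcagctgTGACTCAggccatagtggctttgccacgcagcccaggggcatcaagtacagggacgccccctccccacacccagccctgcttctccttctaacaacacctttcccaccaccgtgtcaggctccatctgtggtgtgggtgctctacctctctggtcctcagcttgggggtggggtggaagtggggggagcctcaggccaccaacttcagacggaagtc
Socs3: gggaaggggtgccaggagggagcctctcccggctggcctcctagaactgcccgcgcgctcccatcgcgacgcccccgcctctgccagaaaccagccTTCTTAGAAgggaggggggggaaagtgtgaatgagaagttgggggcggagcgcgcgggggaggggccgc
The Il6 window held an AP-1 element 249 to 243 bases upstream of the start and the NF-kB element GGGATTTTCC 44 to 35 bases upstream. The AP-1 element lay 98 to 92 bases upstream of Il11, at the first of 2 listed starts, and 228 to 222 bases upstream of Lif. Socs3 was the member whose window held the STAT core, TTCTTAGAA, 154 to 146 bases upstream of its RefSeq start. That window lies inside the span that GENCODE gives for Socs3 (chr11:117966079-117970047, minus strand). The core is thus downstream of the outermost GENCODE start of the gene. The Il11 window shown also lies inside the GENCODE span of its gene. A match describes letters in these windows and not binding.

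Il11, Lif, Osm, Osmr, Stat3 and Socs3 rose in tumors under both genotype labels, and Il11ra1 fell under both. Il6 and Il6st rose under the KO label, Il6ra passed under neither, and the test of the difference between the labels called no member. In WT-labelled libraries 7 of the 10 members were called, 6 higher and 1 lower, where 30.4% of all tested genes were called (15.5% higher and 14.8% lower). In KO-labelled libraries 9 of 10 were called, 8 higher and 1 lower, where 47.2% of all tested genes were called (24.1% higher and 23.2% lower). The median log2 fold change of the 10 members was 0.78 under the WT label and 1.21 under the KO label, against 0.02 over all tested genes in both. Il6, Il11, Lif and Osm passed the expression filter mainly through the tumors, since they were at 1 FPKM or more in 7 to 14 tumors and in 0 or 1 normal libraries, and a difference in them was built into that filter. Of the 6 members that were at 1 FPKM or more in at least 4 normal libraries, 4 were called under the WT label and 5 under the KO label. In bulk tissue a change in the number of cells that express a gene and a change in RNA per cell cannot be told apart.

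**Figure D1:**
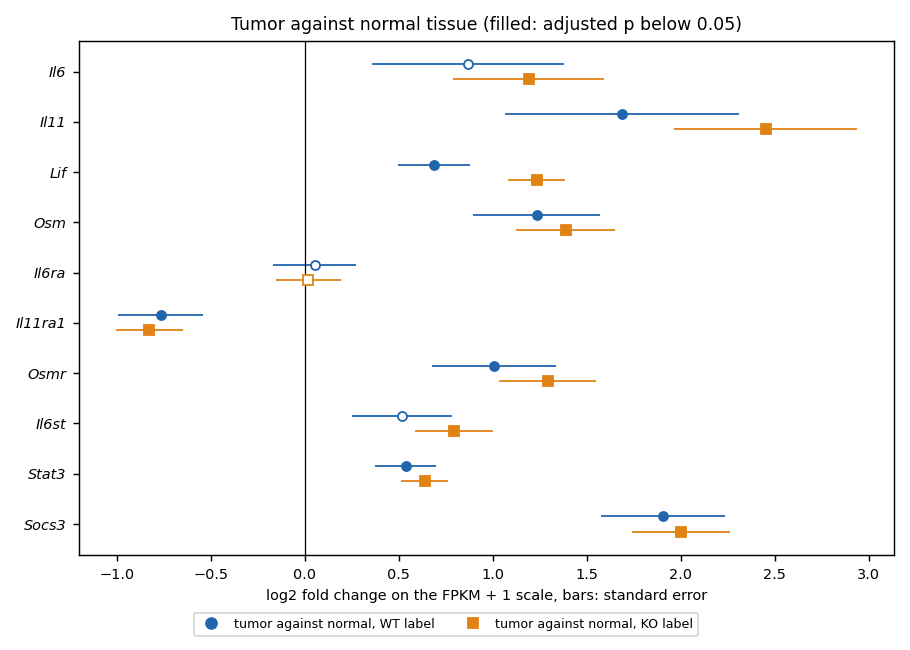
Tumor against normal tissue for the 10 members: log2 fold change on the FPKM + 1 scale (x axis) with standard errors as bars, circles for the WT label (5 tumor and 4 normal libraries) and squares for the KO label (9 and 6), filled where the adjusted p is under 0.05. Socs3 and Il11 lie farthest to the right, Il6ra lies at 0 and Il11ra1 lies to the left in both.

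In 5 members, each of the 14 tumors lay above each of the 10 normal libraries: Il6, Il11, Lif, Osm and Socs3. Such a separation was found for 3.28% of the tested genes. Among the 6 members with at least 1 FPKM in 4 or more normal libraries, Socs3 alone was separated, where 2.42% of comparable genes were. For Il6, Il11, Lif and Socs3 the margin was narrow. The lowest tumor and the highest normal library were at 0.233 and 0.217 FPKM for Il6, at 0.380 and 0.346 FPKM for Il11, at 1.17 and 1.16 FPKM for Lif and at 10.1 and 9.62 FPKM for Socs3.

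Il6 encodes the founding cytokine of the family (GENCODE, chr5:30013114-30019981, plus strand). In the WT-young tumors it was at 1.38, 1.96, 1.36 and 0.233 FPKM, and in the WT-old tumor at 0.269 FPKM. The 9 KO-labelled tumors had a lowest, median and highest value of 0.246, 0.611 and 9.75 FPKM. Normal libraries were at 0.217 FPKM or less, and 3 of them were listed at 0. Thus 5 tumors were at 0.300 FPKM or less, close to the normal range, and 2 tumors, KO-8-hetero replicate 2 with 9.75 FPKM and KO-8-homo replicate 1 with 8.06 FPKM, stood far above the rest. Under the KO label Il6 rose in tumors by 1.19 on the log2 scale (SE 0.40, limma adjusted p = 0.0184). That call was lost without the 6 Xist-positive libraries (1.28, adjusted p = 0.176). Under the WT label the difference was 0.87 (SE 0.51, adjusted p = 0.198) and did not pass, but with a pseudocount of 0.1 it was 2.62 with an adjusted p of 0.0250.

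Il11 encodes a cytokine made chiefly by stromal cells (chr7:4772373-4782859, minus strand). It was at 5.79, 6.51, 8.14 and 0.548 FPKM in the WT-young tumors and at 0.380 FPKM in the WT-old tumor. In KO-labelled tumors it ran from 0.774 through a median of 5.61 to 19.5 FPKM, against 0.0518 to 0.346 FPKM over the 10 normal libraries. Il11 exceeded Il6 in each of the 14 tumors, with a median ratio of 3.82, and was the highest of the 4 ligands in 10 of them. The highest values, 19.5 and 17.3 FPKM, belonged to the same KO-8-homo and KO-8-hetero tumors that led for Il6. Il11 rose in KO-labelled tumors by 2.45 (SE 0.49, limma adjusted p = 0.000376). In WT-labelled tumors it was 1.69 higher (SE 0.62, adjusted p = 0.0429), a call that was lost in 6 of 9 other settings, such as leaving out the WT-old libraries (2.17, adjusted p = 0.0579), and in 7 of 9 fits that each left out 1 WT-labelled library (adjusted p up to 0.113).

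Lif encodes leukemia inhibitory factor, which signals through LIFR and gp130 (chr11:4257557-4272514, plus strand). It was at 3.23, 2.12, 2.59 and 1.78 FPKM in WT-young tumors, 1.17 FPKM in the WT-old tumor and 2.104 to 5.73 FPKM in KO-labelled tumors. Normal libraries were at 0.622 to 1.16 FPKM, and Lif was the highest ligand in all 10 of them. It rose by 0.69 under the WT label (SE 0.19, limma adjusted p = 0.00963) and by 1.23 under the KO label (SE 0.15, adjusted p = 2.4e-06). The call held without the WT-old and without the Xist-positive libraries, with adjusted p-values of 0.0314 and 0.00224 in the group that each touches.

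Osm encodes oncostatin M, a cytokine of myeloid cells (chr11:4236420-4241026, plus strand). Its levels were 2.33, 2.45, 1.87 and 0.735 FPKM in WT-young tumors, 1.86 FPKM in the WT-old tumor and 0.558 to 6.28 FPKM in KO-labelled tumors, against 0.0370 to 0.353 FPKM in normal tissue. The WT-old tumor, low for Il6 and Il11, was in mid range for Osm. Osm rose by 1.23 under the WT label (SE 0.34, limma adjusted p = 0.00888) and by 1.39 under the KO label (SE 0.27, adjusted p = 0.000263).

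**Figure D2:**
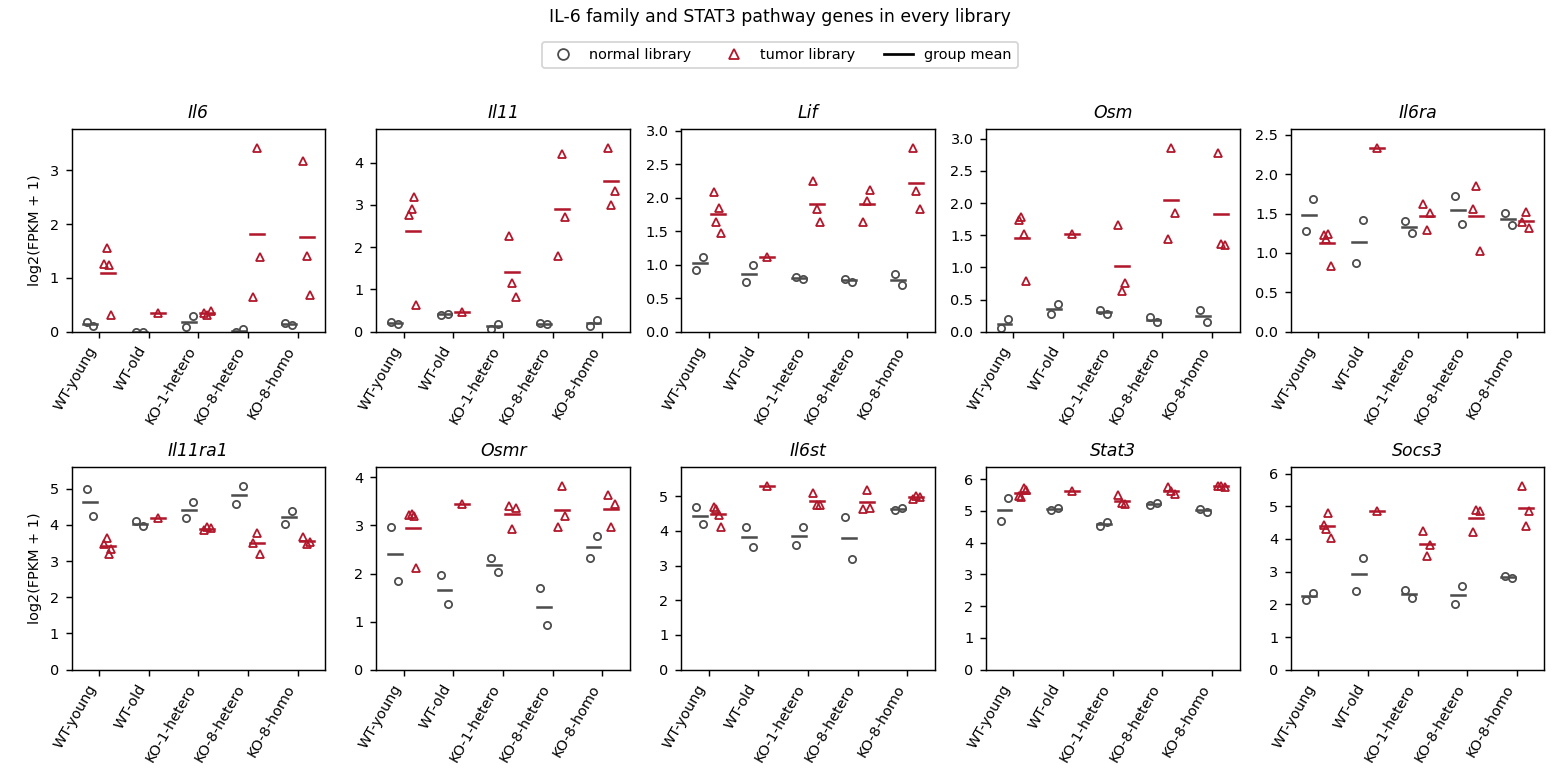
Each member in every library as log2(FPKM + 1) (y axis) by title group (x axis), with circles for normal and triangles for tumor libraries and lines for group means. The ligands and Socs3 separate the 14 tumors from the 10 normal libraries, Il11ra1 runs the other way in 4 of 5 title groups, and the highest Il6 values are single KO-8 tumors.

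The receptors behaved less uniformly than the ligands. Il6st, the shared subunit (chr13:112464070-112510086, plus strand), was at 24.9, 23.8, 20.9 and 16.3 FPKM in WT-young tumors, 38.5 FPKM in the WT-old tumor and 23.6 to 34.8 FPKM in KO-labelled tumors. Normal libraries spanned 8.13 to 24.5 FPKM and overlapped the tumors, 9 of which lay above all of them. Il6st rose under the KO label by 0.79 (SE 0.21, limma adjusted p = 0.00383). Without the Xist-positive libraries the value was 0.31 with an adjusted p of 0.387. Under the WT label the difference was 0.52 (SE 0.27, adjusted p = 0.139), and it was 0.04 without the WT-old libraries.

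Osmr encodes the subunit that pairs with gp130 to bind oncostatin M (chr15:6813577-6874969, minus strand). It was at 8.36, 8.39, 8.12 and 3.34 FPKM in WT-young tumors, 9.86 FPKM in the WT-old tumor and 6.61 to 13.2 FPKM in KO-labelled tumors. Normal libraries were at 0.900 to 6.80 FPKM, so 11 of 14 tumors lay above all of them and WT-young tumor replicate 4 lay within their range. Osmr rose by 1.01 under the WT label (SE 0.33, limma adjusted p = 0.0240) and by 1.29 under the KO label (SE 0.26, adjusted p = 0.000395). The first value was 0.54 (adjusted p = 0.375) without the WT-old libraries, and leaving out 1 library lost its call in 5 of 9 fits (adjusted p up to 0.0937). The second was 0.76 (adjusted p = 0.134) without the Xist-positive libraries.

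Il11ra1 encodes the private receptor of IL-11 (chr4:41699989-41769474, plus strand) and was the one member that fell. It was at 10.1, 11.4, 8.14 and 8.98 FPKM in WT-young tumors, 17.1 FPKM in the WT-old tumor and 8.23 to 14.3 FPKM in KO-labelled tumors, against 14.6 to 32.9 FPKM in normal tissue. Each tumor was below each normal library of the same title group in 4 of 5 title groups, and the WT-old tumor was above both of its normal libraries. Il11ra1 fell by 0.77 under the WT label (SE 0.22, limma adjusted p = 0.0132) and by 0.83 under the KO label (SE 0.18, adjusted p = 0.000711). Without the Xist-positive libraries the KO value was -0.53 with an adjusted p of 0.127, and without WT-young normal replicate 1 the WT value was -0.54 with an adjusted p of 0.0689. Il11ra1 exceeded Il6st in 8 of 10 normal libraries and in 0 of 14 tumors, where the ratio was 0.325 to 0.553. Il11ra2, a near-identical copy, was listed at 0 in all 24 libraries and 6 annotated genes overlap Il11ra1, so how reads were split among them is uncertain. Smooth muscle markers moved with it: 6 of 6 fell under both labels, and their sum was 172 to 2852 FPKM in tumors against 919 to 7073 FPKM in normal tissue, with the highest tumor value in WT-old. Without the Xist-positive libraries 5 of 6 fell under the KO label. Over all tested genes, 14.8% fell under the WT label and 23.2% under the KO label. The part of the smooth muscle markers in the result was not tested.

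Il6ra, the private receptor of IL-6 (chr3:89864059-89913196, minus strand), was the lowest receptor in all 14 tumors. It was at 1.33, 1.27, 1.37 and 0.784 FPKM in WT-young tumors, 4.06 FPKM in the WT-old tumor, 1.03 to 2.60 FPKM in KO-labelled tumors and 0.826 to 2.30 FPKM in normal tissue. The tumor and normal ranges overlapped under both labels. Within WT-young each tumor was below both normal libraries, in WT-old the tumor was above both, and in the 3 KO title groups the ranges overlapped. The log2 difference was 0.05 under the WT label (SE 0.22, limma adjusted p = 0.878) and 0.02 under the KO label (SE 0.17, adjusted p = 0.940), and its sign turned with the normalization.

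Stat3 (chr11:100885098-100939540, minus strand) was abundant in all tissue. It was at 43.1, 42.3, 51.6 and 49.5 FPKM in WT-young tumors, 48.7 FPKM in the WT-old tumor, 35.9 to 54.6 FPKM in KO-labelled tumors and 21.9 to 41.0 FPKM in normal tissue. The ranges overlapped, with 12 of 14 tumors above all normal libraries, and within each of the 5 title groups every tumor was above every normal library. Stat3 rose by 0.54 under the WT label (SE 0.16, limma adjusted p = 0.0159) and by 0.64 under the KO label (SE 0.13, adjusted p = 0.000395). The WT call was lost without the WT-old libraries (0.53, adjusted p = 0.102) and without WT-young normal replicate 1 (0.42, adjusted p = 0.0688). Stat5a overlaps Stat3 on the other strand, and whether the counting used strand is not given in the sources used here.

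Socs3 (chr11:117966079-117970047, minus strand) had a log2 difference of 1.90 under the WT label, the largest of the members, and of 2.001 under the KO label, second to Il11. This order depends on the processing, since under the WT label Il11 was at 2.17 and Socs3 at 2.15 without the WT-old libraries, and with a pseudocount of 0.1 Il11 (2.95), Osm (2.80) and Il6 (2.62) were above Socs3 (2.09). Under the KO label that pseudocount gave 4.43, 2.86 and 2.80 for these ligands and 2.197 for Socs3. It was at 20.4, 18.6, 26.7 and 15.4 FPKM in WT-young tumors, 27.9 FPKM in the WT-old tumor and 10.1 to 48.7 FPKM in KO-labelled tumors, with a median of 20.03 FPKM. Normal libraries were at 3.06 to 9.62 FPKM, and the highest of them was a WT-old library. Socs3 rose by 1.90 under the WT label (SE 0.33, limma adjusted p = 0.000312) and by 2.001 under the KO label (SE 0.26, adjusted p = 4.7e-06), and stayed called without the WT-old libraries (2.15, adjusted p = 0.00143) and without the Xist-positive ones (1.68, adjusted p = 0.00756). The ratio of Socs3 to Stat3 was 0.275 to 0.892 in tumors and 0.0863 to 0.293 in normal tissue. Socs3 was thus higher in proportion to Stat3 in tumors, with ranges that overlapped at the edge.

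Tumors differed widely from each other in the ligands and in neutrophil markers. The 6 measured neutrophil markers (S100a8, S100a9, Cxcr2, Csf3r, Mmp8 and Retnlg) summed to 16.2 to 1764 FPKM in tumors and 2.27 to 31.9 FPKM in normal tissue. Of them, 4 rose under the WT label and 6 under the KO label, or 4 without the Xist-positive libraries. Over all tested genes, 15.5% rose under the WT label and 24.1% under the KO label. The median sum was 226 FPKM in tumors and 5.06 FPKM in normal tissue. Some markers may thus have passed the expression filter mainly through the tumors, and a rise in those was built into that filter. The tumors with the highest sums, KO-8-hetero replicate 2 with 1764 FPKM and KO-8-homo replicate 1 with 1551 FPKM, held the top 2 places for Il6, Il11, Osm and Osmr and for Socs3. For Lif these tumors were in places 6 and 1, and KO-1-hetero replicate 1, in place 9 by the sums, was in place 2. Osm departed from the order of the sums further down: the KO-8-homo replicates 2 and 3, in places 3 and 5 by the sums, were in places 10 and 11 for Osm, and the WT-old tumor, in place 14, was in place 8. The WT-old tumor was also in place 4 for Osmr and in place 5 for Socs3. The 5 tumors with the lowest sums, at 16.2 to 162 FPKM, were at 0.233 to 0.560 FPKM for Il6. Macrophage markers, of which 4 of 6 rose under both labels, summed to 90.1 to 199 FPKM in tumors and 42.4 to 130 FPKM in normal tissue. Without the WT-old libraries 1 of 6 rose under the WT label, and without the Xist-positive libraries 2 of 6 rose under the KO label. In these fits 1350 of 13691 and 1668 of 13646 tested genes rose. Fibroblast markers, of which 2 of 7 rose under the WT label and 5 of 7 under the KO label with 1 lower, summed to 298 to 1157 FPKM and 184 to 546 FPKM. Without the WT-old libraries 0 of 7 rose and 1 fell under the WT label, and without the Xist-positive libraries 0 of 7 were called under the KO label. Their part in the results for the ligands was not tested.

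**Figure D3:**
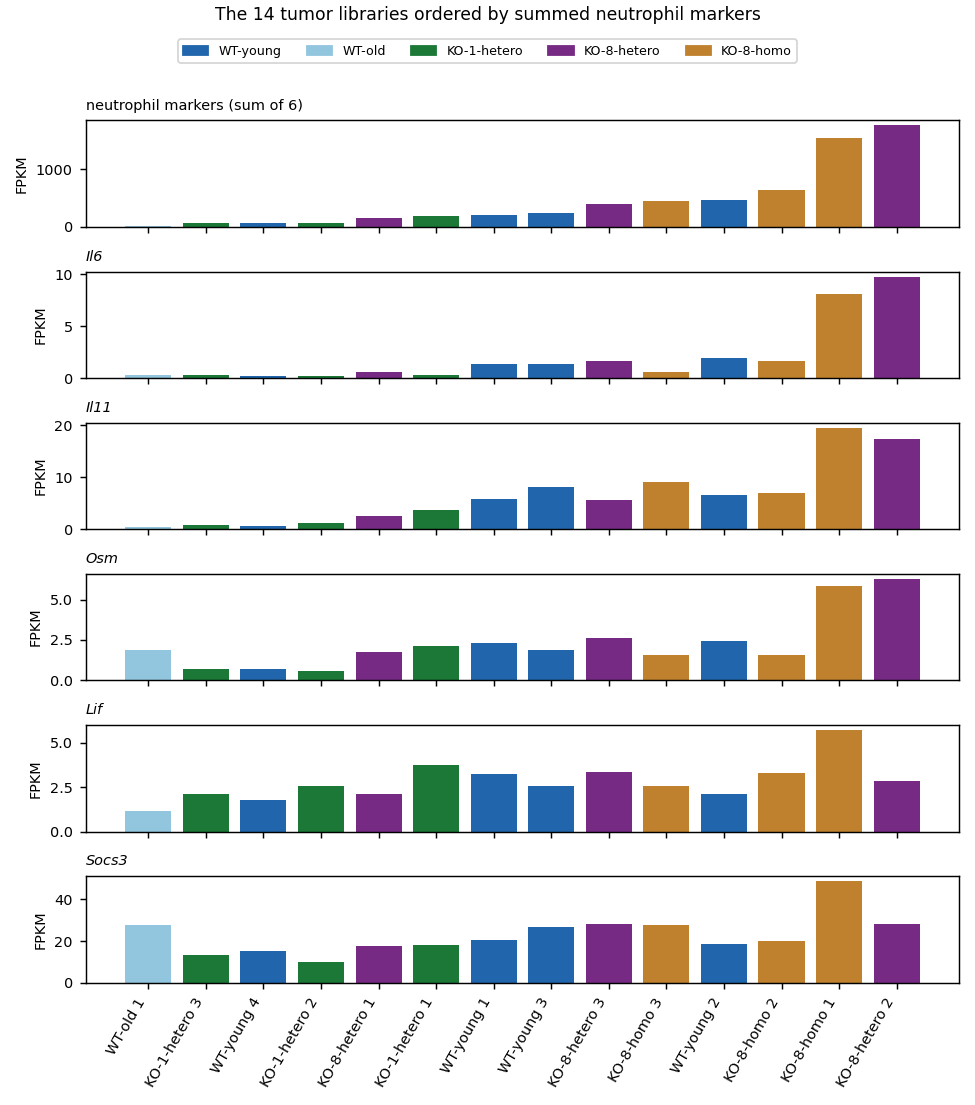
The 14 tumor libraries (x axis), ordered by the summed FPKM of 6 neutrophil markers (top panel), with the FPKM of Il6, Il11, Osm, Lif and Socs3 (the other panels, y axes from 0, bars colored by title group). The 2 tumors at the right, with sums of 1551 and 1764 FPKM, also hold the 2 highest bars for Il6, Il11, Osm and Socs3. Lif departs from the order at the top, where the tumor with the highest sum is in place 6. Further down, Osm is in places 10 and 11 in the tumors in places 3 and 5 by the sums. The WT-old tumor, lowest by the sums, is in place 5 for Socs3.

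The genes whose levels ranked the tumors most like each ligand were named by Spearman's rho over the 14 tumors, as a description of libraries that share their depth and cell makeup. Il6 ranked most like Csf3 (rho 0.960), the gene of granulocyte colony-stimulating factor, and Fstl1 (0.938). Il11 ranked most like Ptgs2 (0.965), which encodes cyclooxygenase-2, and Stfa2l1 (0.952). Lif ranked most like Snai1 (0.934), a transcriptional repressor, and Ptprn (0.930), and Osm most like Cd44 (0.877), the hyaluronan receptor, and Il1a (0.868), the gene of interleukin-1 alpha. Csf3 ran from 0.0255 to 6.07 FPKM and Ptgs2 from 1.59 to 32.1 FPKM over the tumors.

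Of 20 reported STAT3 target genes, 9 rose in tumors under the WT label and 12 under the KO label, and 0 fell, where 15.5% and 24.1% of all tested genes rose. Their median log2 fold changes were 0.73 and 0.90, where that of all tested genes was 0.02. Without the WT-old libraries 10 rose under the WT label, and without the Xist-positive libraries 10 rose under the KO label. Saa3, an acute-phase protein of inflamed epithelium, was at 13.8 to 1237 FPKM in tumors and 1.69 to 17.99 FPKM in normal tissue, and rose by 4.71 under the WT label (limma adjusted p = 0.000484) and by 5.67 under the KO label (adjusted p = 2.0e-06). Icam1, the adhesion molecule that binds leukocyte integrins, was at 11.4 to 33.7 FPKM in tumors and 3.04 to 6.90 FPKM in normal tissue, with no overlap, and rose by 2.15 and 1.86. Ccnd1, which encodes the G1 cyclin D1, rose by 0.97 and 1.38. Some classical targets did not pass under either label: Junb differed by -0.044 under the WT label and 0.42 under the KO label, Fos -0.27 and 0.17, and Mcl1 -0.14 and -0.46, genes picked here after their values were seen. Lcn2, which rose by 3.01 and 3.80 and was also picked after its values were seen, is a protein of epithelium and of neutrophil granules, and the part of the neutrophil markers in these values was not tested.

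**Figure D4:**
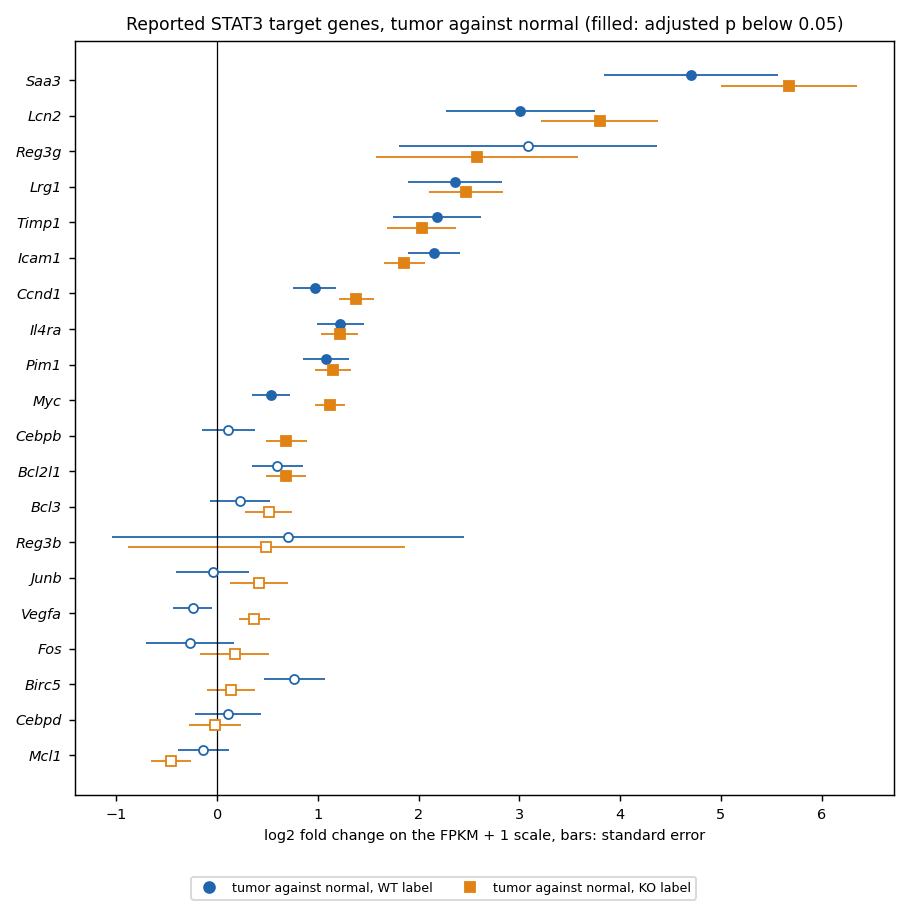
Log2 fold change of tumor against normal tissue (x axis, FPKM + 1 scale, bars standard errors) for 20 reported STAT3 target genes, circles for the WT label and squares for the KO label, filled where the adjusted p is under 0.05. Saa3 is at 4.71 and 5.67, 9 genes are filled for WT and 12 for KO, and genes near 0, such as Fos and Cebpd, are open.

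Among the other ligands and receptors of the family, 7 of 12 were expressed enough to be tested. Under the KO label 3 rose: Lifr, the receptor of LIF, by 0.54 (limma adjusted p = 0.0144), Clcf1, a ligand of the ciliary neurotrophic factor receptor, by 0.91 (adjusted p = 0.0181), and Ebi3, a subunit of interleukin-27, by 0.51 (adjusted p = 0.0274). Under the WT label Cntf, which encodes ciliary neurotrophic factor, fell by 0.39 (adjusted p = 0.0434). Of all tested genes, 24.1% rose under the KO label and 14.8% fell under the WT label. The 3 KO calls were lost without the Xist-positive libraries, and the WT call without the WT-old libraries. Of 10 Janus kinases and other STAT factors, 4 rose under the WT label and 5 under the KO label, and 0 fell. The shares of all tested genes that rose were 15.5% and 24.1%. Stat2, a factor of interferon signalling, rose by 0.82 and 0.78, and Jak3, a kinase of lymphocytes, by 0.95 and 0.78. Without the WT-old libraries 2 of 10 rose under the WT label, and without the Xist-positive libraries 1 of 10 under the KO label. In these fits 1350 of 13691 and 1668 of 13646 tested genes rose.

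Of 13 inhibitors other than Socs3, 1 rose and 1 fell under the WT label, and 2 rose and 1 fell under the KO label, where 30.4% and 47.2% of all tested genes were called. Without the Xist-positive libraries 1 rose and 1 fell under the KO label. Socs1, which blocks Janus kinases, rose under the WT label by 1.02 (limma adjusted p = 0.0341), and Ptpn1 and Socs4 rose under the KO label by 0.51 and 0.38. Socs2, an inhibitor best known from growth hormone signalling, fell by 0.72 (adjusted p = 0.00899) and 0.85 (adjusted p = 0.000175), from 12.2 to 26.5 FPKM in normal tissue to 6.14 to 13.9 FPKM in tumors. Socs2 and Socs3 thus ran in opposite directions. Among 14 other cytokines and receptors that use STAT3, 9 were tested, 3 rose under the WT label, and 5 rose and 1 fell under the KO label. Over all tested genes, 15.5% rose under the WT label, and 24.1% rose and 23.2% fell under the KO label. Il23a, the subunit specific to interleukin-23, rose by 2.14 and 2.06, from at most 0.745 FPKM in normal tissue to 0.507 to 14.8 FPKM in tumors. Il23a thus passed the expression filter of 1 FPKM through the tumors alone, and a difference in it was built into that filter. Csf3r, the receptor of granulocyte colony-stimulating factor and also one of the neutrophil markers above, rose by 1.85 and 2.23, and Il10ra, the private receptor of interleukin-10, by 1.26 and 0.92. Il22ra2, the soluble decoy receptor of interleukin-22, fell under the KO label by 1.97 (adjusted p = 0.00154). Its median over the 14 tumors was 0.0783 FPKM. It may thus have passed the filter mainly through the normal libraries, and a fall would then be built into that filter. Without the WT-old libraries 2 of 9 rose and 1 fell under the WT label. Without the Xist-positive libraries 2 of 8 tested rose under the KO label and 0 fell. In these fits 1350 of 13691 and 1668 of 13646 tested genes rose.

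The comparison named by the series, KO against WT, gave no call among the members. In tumors 0 of 10 were called by limma, 1 was at an unadjusted p under 0.05, and 0.00725% of all tested genes were called. That member was Lif, 0.38 higher under the KO label (SE 0.16, adjusted p = 0.522). The differences of Il6 (0.37, SE 0.42) and Il11 (0.63, SE 0.52) were smaller than the spread between tumors, and those of Stat3 (-0.0026, SE 0.13) and Socs3 (0.0043, SE 0.27) were near 0, with signs that turned when single libraries were left out. In normal tissue 0 of 10 members were called and 0 were at an unadjusted p under 0.05, with 0.0% of all genes called, and differences ran from -0.16 to 0.15. The test of whether the tumor-normal difference depends on the label called 0 of 10 members, with 0.0% of all genes called and Lif (0.54, SE 0.24, adjusted p = 0.986) at an unadjusted p under 0.05. Of the fixed pathway lists, 0 genes were called between the labels in tumors.

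The fitted differences of the KO title groups from WT-young did not all have the same sign. In KO-1-hetero 5 of 10 members were above 0 and 5 below, and in both KO-8 groups all 10 were above 0. Against the same 4 WT-young tumors, 0 of 10 members were called in KO-1-hetero, KO-8-hetero or KO-8-homo tumors by limma, where 2.88%, 0.00725% and 0.457% of all genes were called, and 1, 0 and 1 members were at an unadjusted p under 0.05. In KO-1-hetero tumors Il6 was at 0.280, 0.246 and 0.300 FPKM, below 3 of the 4 WT-young tumors, and the log2 difference was -0.74 (SE 0.54, adjusted p = 0.499). In those tumors Il11 was at 3.78, 1.23 and 0.774 FPKM (difference -0.96, SE 0.57, adjusted p = 0.380), and Socs3 was at 18.1, 10.1 and 13.1 FPKM (difference -0.54, SE 0.29, adjusted p = 0.331). Il11ra1, at 13.4, 14.3 and 13.9 FPKM, was above all 4 WT-young tumors there and was the member with an unadjusted p under 0.05 (0.49, SE 0.19, adjusted p = 0.162). Beside it, 5 of 6 B and plasma cell markers and 2 of 6 smooth muscle markers rose in KO-1-hetero tumors, whose part in the result was not tested. Without WT-young replicate 4 the Il11 difference was -1.54, and without KO-1-hetero replicate 2 that of Socs3 was -0.35. From the other family and cytokine lists, Il27ra rose by 0.95 (adjusted p = 0.0145), Ebi3 by 0.77 (adjusted p = 0.0356) and Il21r by 1.23 (adjusted p = 0.0317) in these tumors. Whether these 3 calls hold with single libraries left out is not given here. Over all tested genes, the 397 calls of this comparison became 18 without KO-1-hetero replicate 1 and 15 without KO-1-hetero replicate 3.

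In KO-8-homo tumors all 10 fitted differences from WT-young were above 0. Il11 was at 19.5, 6.98 and 9.04 FPKM there, and the difference was 1.19 (SE 0.57, limma adjusted p = 0.501). Lif was at 5.73, 3.28 and 2.55 FPKM (0.46, SE 0.21, adjusted p = 0.453), and Socs3 was at 48.7, 20.03 and 27.9 FPKM (0.57, SE 0.29, adjusted p = 0.543). In KO-8-hetero tumors the 10 differences were also above 0, from 0.07 to 0.73. The Il6 differences of both groups, 0.67 in KO-8-homo and 0.73 in KO-8-hetero, each rested on 1 tumor: without KO-8-homo replicate 1 the former was -0.044, and without KO-8-hetero replicate 2 the latter was -0.070. Other values rested on single tumors as well. Without KO-8-homo replicate 1 the differences of that group were 0.20 for Lif and 0.24 for Socs3, Osm turned from 0.37 to -0.10, and 8 of the 10 stayed above 0. Its Il11 difference was 0.61 without WT-young replicate 4. Without KO-8-hetero replicate 2 the differences of that group were below 0 for Il11 (-0.12) and Il11ra1 (-0.055) too, and 7 of the 10 stayed above 0. KO-8-homo and KO-8-hetero tumors, which share the leading number and differ in zygosity by title, had 0 of 10 members called against each other, 0 at an unadjusted p under 0.05, with 0.0507% of all genes called. Differences between them ran from -0.22 to 0.66, the highest for Il11 (SE 0.61, adjusted p = 0.972), which was 0.099 without KO-8-hetero replicate 1 and 1.30 without KO-8-hetero replicate 2.

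**Figure D5:**
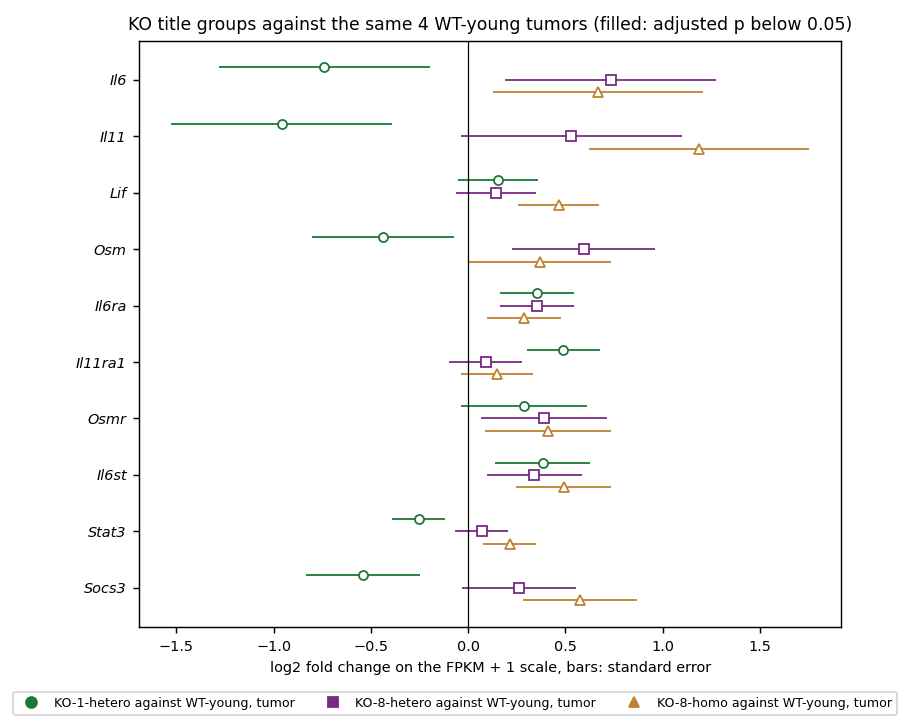
Log2 difference of the tumors of each KO title group (3 each) from the same 4 WT-young tumors (x axis, FPKM + 1 scale, bars standard errors) for the 10 members, with all symbols open because no adjusted p was under 0.05. KO-1-hetero lies left of 0 for Il6, Il11, Osm, Stat3 and Socs3, and both KO-8 groups lie right of 0 for all members, with 8 (KO-8-homo) and 7 (KO-8-hetero) right of 0 when the tumor with the highest Il6 is left out.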

How the data were processed

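A miRNeasy kit was used to extract total RNA, and a stranded TruSeq mRNA kit to make the libraries, per the labels' protocols. The authors deposited 1 table of FPKM values per library, per the file headers. TopHat2 2.1.1, Bowtie2 2.2.8, SAMtools 0.1.18, Cuffdiff 2.2.1 and the build mm10 are named in the submitters' processing notes, and the annotation is not given in the sources used here. No scaling was added. A gene was tested if 4 or more libraries reached 1 FPKM (13799 of 24346 symbols, all 10 members among them), and log2(FPKM + 1) was fitted with limma 3.58.1 in R 4.3.3 (lmFit, contrasts.fit, eBayes with its trend option, all tests two-sided, Benjamini-Hochberg adjustment over all tested genes, threshold 0.05). A model of label by tissue and a model of the 10 groups each used all 24 libraries. The fit of KO against WT in tumors was also run on simulated libraries. These were drawn independently and without title groups, the other comparisons were not simulated, and the outcome is not reported here. Python 3.11.15 with numpy 2.4.6, pandas 2.3.3, scipy 1.17.1 and matplotlib 3.10.9 did the rest.

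The members, the gene lists and the markers were chosen with earlier results of these data known. All members are named. From each other list, up to 3 genes a direction were named by the smaller of the 2 adjusted p-values in tumor against normal, except where the text says otherwise, and the 2 symbols most like each ligand by Spearman's rho. The result of 1 gene that this rule named is not reported here. Genes called in KO-1-hetero tumors were named after their values were seen. Gene positions are from GENCODE vM21 (GRCm38, the assembly of mm10). Fragment totals are unknown, so no counting interval is given. No 2 libraries held identical values. Same-numbered tumor and normal libraries did not consistently deviate together, with correlations of -0.16 to 0.35 over 8 pairs, the highest in WT-young replicate 1. The 2 normal libraries of a group deviate from its mean by equal and opposite amounts, so these values are not independent. Xist differed in 4 of the pairs, and the numbers were not used as pairs. Alternatives were another pseudocount, no filter, quantile normalization, median centring, no trend, libraries left out, a term for Xist and a replicate block.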

Additional observations from a re-analysis of the deposited data

Results flagged for a closer look

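A sample was picked out where its gap to the nearest other library, divided by the range of its group, exceeded Dixon's critical value at 95%. Over 50 sets of FPKM values this gave 6. For normally distributed values, which FPKM need not be, chance gives about 1 in 20, or 2.5. The sets overlap, since WT-young tumors are part of the WT-labelled ones. Among the 9 KO-labelled tumors, KO-8-homo replicate 1 stood above the others for Lif, at 5.73 FPKM against 2.104 to 3.78, and for Socs3, at 48.7 FPKM against 10.1 to 28.3. Among the 5 WT-labelled tumors the WT-old tumor stood above the others for Il6ra, at 4.06 FPKM against 0.784 to 1.37. WT-young tumor replicate 4 stood below the others for Osmr, at 3.34 FPKM against 8.12 to 9.86 in the WT-labelled tumors and against 8.12 to 8.39 in the WT-young ones. Among the 4 WT-labelled normal libraries, WT-old replicate 2 stood above the others for Socs3, at 9.62 FPKM against 3.42 to 4.35.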

How the results depend on the processing

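Of the tumor-normal calls, those of Osm and Socs3 held under both labels in all alternatives run, and those of Lif in all but the replicate block, where the WT value had an adjusted p of 0.0686. The number of members called under the WT label was 7, and it was 4 without the WT-old libraries and 4 to 7 when single libraries were left out, lowest without WT-young normal replicate 1. Under the KO label it was 9, and 5 without the Xist-positive libraries, a fit with 7 tumor and 2 normal libraries. Those 2 normal libraries are both KO-8-homo, since every hetero normal library was Xist-positive. Sex, title group and the smaller number of libraries therefore cannot be told apart in that change. Same-numbered tumor and normal libraries are not known to come from one animal, and a replicate block on the number gave 2 members under the WT label and 9 under the KO label. Counts of 0 members in the other comparisons stayed at 0 in all alternatives.

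Over all genes, 4192 were called under the WT label, against 2661 without the WT-old libraries and 2230 with the block. Under the KO label 6520 were called, against 3652 without the Xist-positive libraries. Median centring moved the calls that were higher from 2143 of 4192 to 1613 of 4151 under the WT label and from 3321 of 6520 to 2503 of 6478 under the KO label. The counts behind the comparisons of tumors shifted with single libraries: 397 for KO-1-hetero against WT-young became 15 to 349, 1 for KO-8-hetero became 0 to 245 (245 without KO-8-hetero replicate 1), 63 for KO-8-homo became 18 to 49, and 7 for KO-8-homo against KO-8-hetero became 0 to 344 (344 without KO-8-hetero replicate 1, and 19 with quantile normalization). The 1 gene called between the labels in tumors became 0 to 2. The 0 genes of the interaction became 7 without the Xist-positive libraries and 0 to 1 when single libraries were left out. The causes were not tested.

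Il6ra in tumor against normal was -0.085 with quantile normalization, -0.028 with median centring and -0.36 without the WT-old libraries under the WT label, and -0.21, -0.079 and, with a term for Xist, -0.037 under the KO label. With single libraries left out it ran from -0.19 to 0.18 and from -0.031 to 0.076. Stat3 between the labels in tumors was 0.053 with quantile normalization, 0.012 with median centring, 0.010 without the WT-old libraries, 0.056 without the Xist-positive ones and 0.041 with a term for Xist. Leaving out single libraries it ran from -0.039 to 0.044, and Socs3 from -0.14 to 0.13. Against WT-young, Il6 ran from -0.070 to 1.32 and Il11 from -0.12 to 1.09 in KO-8-hetero, and Il6 from -0.044 to 1.20 in KO-8-homo. Levels under about 1 FPKM are limited by a depth that the tables do not give.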

Other observations

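The WT-old tumor, a single library, held the highest value of the 14 tumors for 23 of 61 genes from the pathway lists that reached 1 FPKM in some tumor. KO-8-hetero replicate 2 followed with 11, and 5 tumors held 0. For several of them the WT-old value was far from the next tumor: Il21r, the receptor of interleukin-21, was at 43.4 FPKM against 7.48 in the next, Ptpn6, a phosphatase of blood cells, at 138 against 35.1, Stat4 at 18.2 against 4.43, and Clcf1 at 13.6 against 3.55. Il22ra2 was at 15.5 FPKM there against 2.05 in the next tumor, while 12 of the 14 tumors lay below all 10 normal libraries. The same library had the highest tumor sum of T cell markers, 107 FPKM, and of B and plasma cell markers, 1815 FPKM, and the lowest of neutrophil markers, 16.2 FPKM. These genes were chosen after their values were seen, and with 1 library there is no replicate.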
